A study of Mus musculus with 4 samples.

Results

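The striatum of a mouse genotype with 1 long mutant huntingtin allele and 1 wild-type allele, HDQ315/+, was compared with that of a genotype carrying shorter mutant alleles on both chromosomes, HDQ150/150. Both belong to a set of knock-in models of Huntington's disease, in which the polyglutamine-coding repeat of the mouse's own huntingtin gene is lengthened, and the numbers in the genotype names are the labelled lengths in glutamines. All mice were on the C57BL/6J background and 21 weeks old, and poly A+ RNA of dissected striatum was sequenced as paired TruSeq reads of 50 bases. A wild-type library (HDQ+/+) and a library homozygous for the 200 allele (HDQ200/200) from the same series serve here as reference levels. Sex, the number of mice that went into a library, and any pooling of tissue are not stated in the sources used here. There was 1 library per genotype, so the contrast has no replicate check and no p-value, and differences between libraries cannot be told apart from differences between animals or dissections. Allele length and allele number change together between the 2 genotypes, and their parts cannot be told apart.

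Genes were taken from the deposited table of FPKM values, which relate fragments to the length of the transcript and the depth of the library. A gene was included if it was named and had a mean of at least 1 FPKM over the 4 libraries, which held for 12966 of 29144 features. Of these, 88 short non-coding RNA genes, whose FPKM is distorted when a fragment is longer than the transcript, were set apart. A further 2 mitochondrial features, mt-Co1 and the merged mt-Atp6,mt-Atp8,mt-Co3, were also set apart and treated as failed estimates. HDQ315/+ has 0 for them where HDQ150/150 has 30266 and 145129 FPKM. The zeros are not particular to HDQ315/+: HDQ+/+ has 0 for both features. HDQ200/200 has 0 for mt-Co1 and 111518 FPKM for the merged feature. That left 12876 genes. The ratio used throughout is the log2 ratio of FPKM + 1, HDQ315/+ over HDQ150/150, and a gene is called higher or lower where it reached 1.5-fold on that scale, which understates differences of genes with low levels. Fragments are estimates from the scaled counts and not recovered reads. To 6 digits, HDQ315/+ held 26324800 and HDQ150/150 held 25058800, with 36877600 in HDQ+/+ and 33468900 in HDQ200/200.

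The striatum consists mostly of GABAergic spiny projection neurons, divided into a direct pathway (dopamine receptor D1, substance P, dynorphin) and an indirect pathway (dopamine receptor D2, an adenosine receptor, enkephalin). In Huntington's disease and its mouse models these neurons lose transcripts that define them, such as those for DARPP-32, phosphodiesterase 10A and enkephalin, and the indirect pathway is affected early. The striatum borders the cortex, the lateral ventricle with its ependyma and choroid plexus, and more caudal nuclei, so a dissected piece can hold RNA of these neighbours.

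Huntingtin mRNA stood at nearly the same level in the 2 genotypes. Htt lies on chromosome 5 (chr5:34761740-34912521, mm10) and had 4.78 FPKM in HDQ315/+, 4.42 in HDQ150/150, 7.68 in HDQ200/200 and 7.56 in HDQ+/+. The HDQ315/+ and HDQ150/150 libraries thus sat together, both under the other 2 libraries. The log2 ratio was 0.09, and the ratio of scaled fragment counts was 1.02, with a 95% interval of 0.952 to 1.09 (exact Clopper-Pearson, as for all intervals below, covering counting error only). A gene-level value does not separate the mutant from the wild-type transcript of HDQ315/+, and repeat length cannot be read from it. The stretch that the knock-in alleles lengthen is given here as it stands in the reference mouse, from the start codon in exon 1 (GENCODE M21, GRCm38, chr5:34761907-34762086, plus strand), with the glutamine codons of the repeat in capitals.
Htt: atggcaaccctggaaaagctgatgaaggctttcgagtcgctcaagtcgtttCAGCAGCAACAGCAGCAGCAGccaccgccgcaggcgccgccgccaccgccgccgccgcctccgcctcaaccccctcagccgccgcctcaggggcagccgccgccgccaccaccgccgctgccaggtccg
The reference run starts at codon 18 and has 7 codons, 6 CAG and 1 CAA.

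Across the 12876 genes, 323 were higher in HDQ315/+ (2.51% of those compared) and 246 were lower (1.91%), together 4.42%. The median log2 ratio of all genes was 0.05. The balance of the 2 directions depended on that offset: 56.8% of the called genes were higher as deposited, and 46.8% after centring on the median. The called genes were more frequent at low levels, with 7.99% of genes between 1 and 3 FPKM past the fold and 3.59% of genes at 100 FPKM or above. The interval of the count ratio lay wholly on the called side of 1 for 314 of the 323 higher and 243 of the 246 lower genes. Of the called genes, 88 of the higher and 44 of the lower belonged to 1 or more of the gene lists examined. The lists were chosen with earlier results of these data known. The share of all genes compared that belong to a list was not computed, so no conclusion is drawn from these counts.

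**Figure D1:**
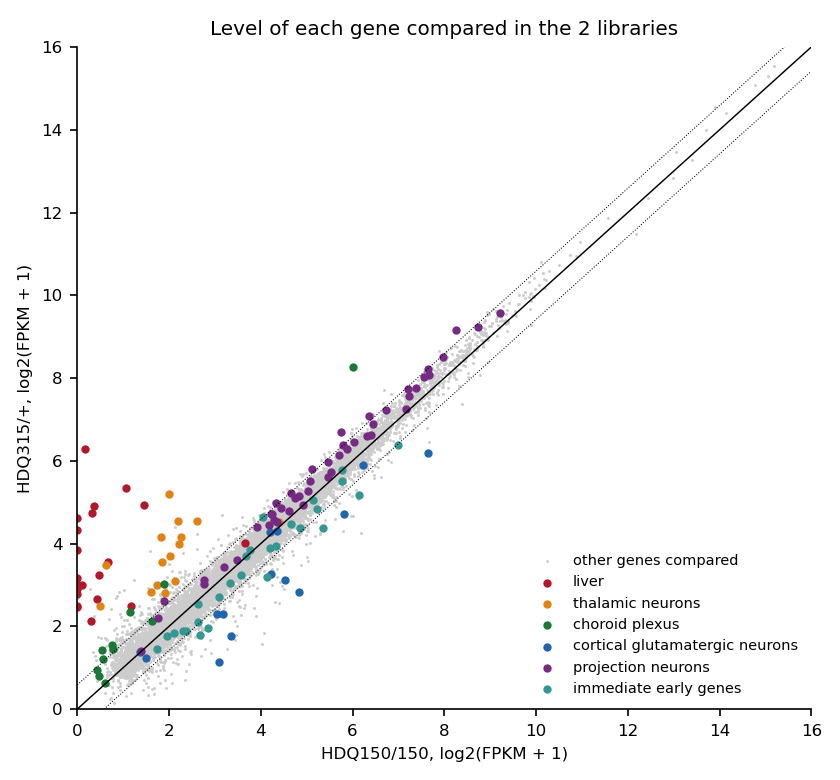
Level of each gene compared in HDQ150/150 (horizontal) and HDQ315/+ (vertical), both as log2(FPKM + 1), 1 library each; the solid line marks equal levels, the dotted lines 1.5-fold, and coloured points the members of 6 gene lists. Most liver and thalamic genes sit above the upper dotted line, 9 of 14 cortical genes below the lower one, and projection neuron genes along the upper side of the line of equal levels.

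The transcripts that define spiny projection neurons stood higher in HDQ315/+ than in HDQ150/150, by moderate amounts and in nearly every member. All 30 genes shared by both pathways, all 10 direct pathway genes and all 7 indirect pathway genes had a ratio above 0, against 7658 of the 12876 genes compared. The median log2 ratios were 0.40, 0.39 and 0.50, against 0.05 for all genes. Most of these differences were smaller than 1.5-fold. Called higher were 6 of 30 shared, 0 of 10 direct and 1 of 7 indirect pathway genes, and 0 were called lower. Of all genes, 2.51% were called higher and 1.91% lower. With 1 library each, a higher level in bulk tissue cannot be told apart between more cells of a type and more RNA per cell, here and in every list that follows. The medians stayed between 0.34 and 0.41 (shared), 0.30 and 0.44 (direct) and 0.42 and 0.52 (indirect) under the scalings, filters and corrections tried.

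Enkephalin had the largest difference among the pathway-specific genes. Penk, the precursor of the opioid peptide of the indirect pathway, had 570 FPKM in HDQ315/+, 305 in HDQ150/150, 247 in HDQ200/200 and 1030 in HDQ+/+. HDQ315/+ stood above both homozygotes and well under the wild type, with a log2 ratio to HDQ150/150 of 0.90 and a count ratio of 1.84 (1.804 to 1.884). Drd2, the D2 receptor, had 62.1 FPKM against 42.9 in HDQ150/150, 50.8 in HDQ200/200 and 85.5 in HDQ+/+, a log2 ratio of 0.52 that is under the fold. Adora2a, the adenosine receptor of the same cells, had 76.8, 57.7, 51.7 and 139 FPKM in the same order, with a log2 ratio of 0.41. These 3 genes shared 1 order at the top, HDQ+/+ above HDQ315/+ above both homozygotes.

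On the direct pathway side, Tac1, which encodes substance P, had 298 FPKM in HDQ315/+, 200 in HDQ150/150, 164 in HDQ200/200 and 286 in HDQ+/+. Its log2 ratio was 0.57, just under the fold, and the heterozygote was close to the wild type. Pdyn, the dynorphin precursor, had 25.3 FPKM against 17.9 in HDQ150/150 and 41.9 in HDQ+/+ (log2 ratio 0.48), and HDQ200/200 was at 22.7. Drd1a, the D1 receptor, differed from Tac1 in its order: it had 44.7 FPKM in HDQ315/+ and 32.7 in HDQ150/150 (log2 ratio 0.44), but 51.5 in HDQ200/200 and 85.9 in HDQ+/+. The heterozygote was thus above HDQ150/150 and below HDQ200/200 for this receptor.

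Among the genes shared by both pathways, the 6 past the fold were Rasgrp2, Ryr1, Rgs9, Rxrg, Actn2 and Syndig1l. Rasgrp2, a calcium- and diacylglycerol-regulated activator of Rap, had 103 FPKM in HDQ315/+, 52.8 in HDQ150/150, 40.8 in HDQ200/200 and 126 in HDQ+/+, a log2 ratio of 0.96. Rgs9, which speeds the shut-off of G proteins behind dopamine and opioid receptors, had 134 FPKM against 81.7 in HDQ150/150, 84.3 in HDQ200/200 and 198 in HDQ+/+ (log2 ratio 0.71). For both, HDQ315/+ lay between the wild type and the 2 homozygotes. Ryr1, the calcium release channel, stayed far from the wild type: 5.10 FPKM in HDQ315/+, 2.70 in HDQ150/150, 3.73 in HDQ200/200 and 12.8 in HDQ+/+ (log2 ratio 0.72). Rxrg, a retinoid X receptor, had 55.1, 33.7, 29.7 and 77.1 FPKM in the same order, with a log2 ratio of 0.69.

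The other end of the same list held Cnr1, the cannabinoid receptor CB1, with nearly equal values. Cnr1 had 29.8 FPKM in HDQ315/+ and 29.1 in HDQ150/150, against 50.2 in HDQ200/200 and 82.7 in HDQ+/+. The heterozygote and HDQ150/150 were level, with a log2 ratio of 0.03 and a count ratio of 0.956 (0.912 to 1.003). Ppp1r1b, which encodes the dopamine-regulated phosphatase inhibitor DARPP-32, had 602, 425, 293 and 830 FPKM in HDQ315/+, HDQ150/150, HDQ200/200 and HDQ+/+, a log2 ratio of 0.50. Pde10a, the phosphodiesterase concentrated in these neurons, had 69.2 FPKM in HDQ315/+ and 51.4 in HDQ150/150 (log2 ratio 0.42), but 113 in HDQ200/200 and 157 in HDQ+/+. Scn4b, a sodium channel subunit, had 117 against 86.8 FPKM (0.43 on the log2 scale). Itpr1, the IP3 receptor of the calcium store, depended on the measure: its log2 ratio of FPKM + 1 was 0.08 and its count ratio was 0.774 (0.752 to 0.796), so its direction is unsettled.

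The list medians of HDQ315/+ were also below the wild type, by less than those of HDQ150/150, although single genes such as Tac1 were not. Over HDQ+/+, the median log2 ratio of the 30 shared genes was −0.56 in HDQ315/+ and −1.05 in HDQ150/150, and 13 and 26 members respectively were lower by the fold. The 7 indirect pathway genes had medians of −0.76 and −1.12, and the 10 direct pathway genes −0.24 and −0.59. Both sets of values use the same HDQ+/+ library. HDQ200/200 had medians of −0.81, −0.80 and −0.68 for the shared, indirect and direct genes over that library.

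**Figure D2:**
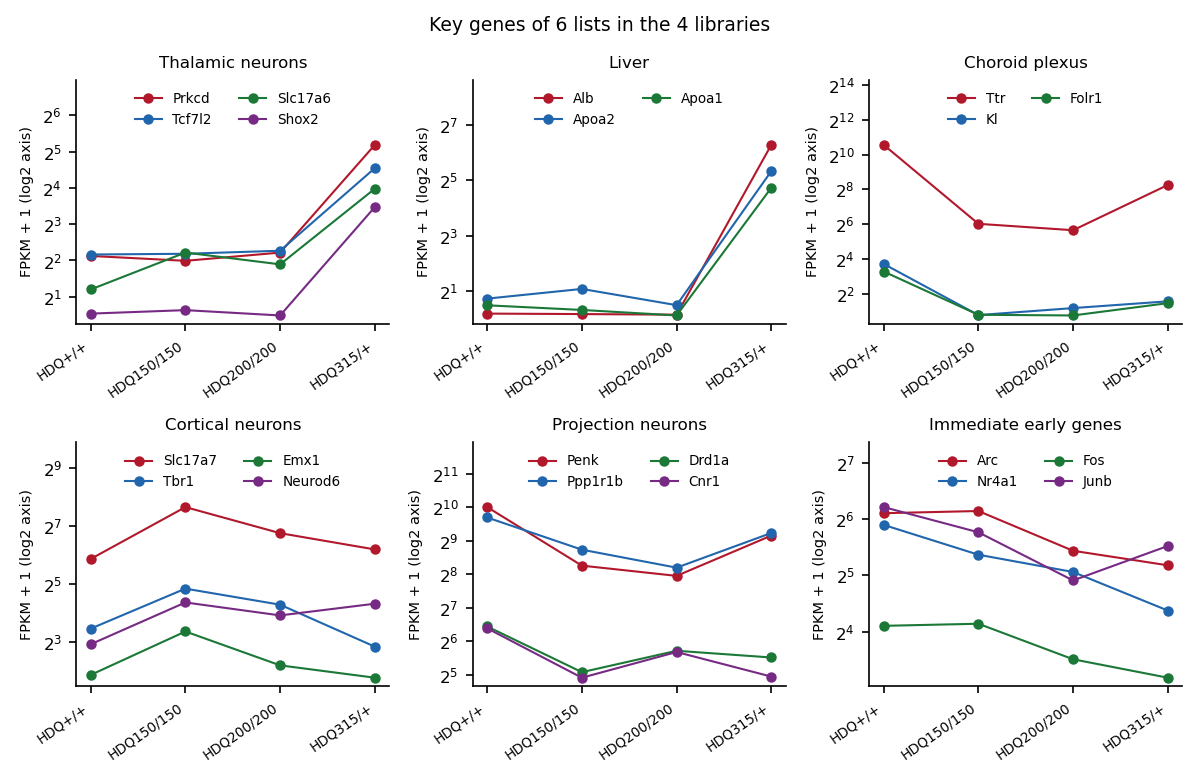
FPKM + 1 (log2 axis) of key genes of 6 lists in the 4 libraries, 1 library per genotype; points are libraries and lines join the values of a gene. Thalamic and liver genes are high in HDQ315/+ alone among the libraries shown, the cortical genes shown peak in HDQ150/150, and Penk and Ppp1r1b in HDQ315/+ lie between HDQ+/+ and HDQ150/150.

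Genes of glutamatergic thalamic neurons were much higher in HDQ315/+ than in the other 3 libraries. Of 16 list members, 15 passed the filter, Shox2 and Gbx2 among them only through HDQ315/+. Of the 15, 14 were called higher, beside 2.51% of all genes, with a median log2 ratio of 1.76 against 0.05 for all genes. The remaining member, Lhx9, was under the filter and had 162 fragments against 15, and Lhx2, which is also made by other neural cells, had a log2 ratio of 0.13. Prkcd, a protein kinase C isoform abundant in thalamic relay neurons, had 35.5 FPKM in HDQ315/+, 2.98 in HDQ150/150, 3.65 in HDQ200/200 and 3.36 in HDQ+/+. Only the heterozygote was high, with a log2 ratio of 3.20 and a count ratio of 11.4 (9.98 to 13.2). Shox2, a homeobox factor, had 10.1 FPKM against 0.549, 0.399 and 0.449 in the same order of libraries, and a log2 ratio of 2.84. Tcf7l2, the transcription factor that marks thalamic neurons after birth, had 22.4 FPKM against 3.55, 3.82 and 3.48, a log2 ratio of 2.36.

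Slc17a6, the vesicular glutamate transporter of subcortical excitatory neurons, had 14.8 FPKM in HDQ315/+, 3.66 in HDQ150/150, 2.71 in HDQ200/200 and 1.30 in HDQ+/+ (log2 ratio 1.76). Tnnt1, a troponin T gene, had 16.8 against 2.53 FPKM, 1.28 in HDQ200/200 and 3.09 in HDQ+/+ (log2 ratio 2.33). Calb2, which encodes calretinin and stood on the striatal interneuron list, was the only member of that list called higher, with 20.3 FPKM in HDQ315/+ against 3.38, 2.36 and 2.64 in HDQ150/150, HDQ200/200 and HDQ+/+ (log2 ratio 2.28). Rgs16, which is on both the thalamic and the RGS list, had 10.7 FPKM against 2.57 in HDQ150/150 (log2 ratio 1.71). The summed level of the 15 thalamic genes was 215 FPKM in HDQ315/+ and between 53.0 and 59.5 FPKM in the other 3 libraries. How much thalamic or other neighbouring tissue each dissected piece held was not tested, nor was its part in any other difference reported here.

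Several hippocampal genes were also higher in HDQ315/+ than in HDQ150/150. Of 9 list members, 5 passed the filter, C1ql2 and Spink8 of these only through HDQ315/+. Of the 5, 4 were called higher, beside 2.51% of all genes. The median log2 ratio was 0.99, and all 9 had a count ratio whose interval lay above 1. C1ql2, a secreted synapse organiser of dentate granule cells, had 6.15 FPKM in HDQ315/+, 0.879 in HDQ150/150, 0.362 in HDQ200/200 and 0.842 in HDQ+/+ (log2 ratio 1.93). Only HDQ315/+ exceeded 1 FPKM. Fibcd1 had 5.29 against 2.16 FPKM, with 2.14 and 2.78 in HDQ200/200 and HDQ+/+ (0.99 on the log2 scale). Prox1, a homeobox factor of granule cells, had 4.11 against 2.38 FPKM, but 5.09 in HDQ200/200, and so was not highest in the heterozygote (log2 ratio 0.59). Over all 9 genes, HDQ315/+ had 6077 fragments, HDQ150/150 3007, HDQ200/200 10051 and HDQ+/+ 6631, most of them in each library from the merged feature Mir568,Zbtb20. These sums are not scaled for depth. In FPKM, too, that feature was lowest in HDQ150/150 and highest in HDQ200/200.

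Genes of cortical glutamatergic neurons went the other way. Of 14 members, all of which passed the filter, 0 were called higher and 9 lower, beside 2.51% and 1.91% of all genes. The median log2 ratio was −0.92, against 0.05 for all genes. The wild type was on the side of HDQ315/+: over HDQ+/+, 11 of the 14 were higher by the fold in HDQ150/150 (median 1.26) and 3 in HDQ315/+ (median 0.19). Slc17a7, the vesicular glutamate transporter of cortical neurons, had 71.7 FPKM in HDQ315/+, 199 in HDQ150/150, 106 in HDQ200/200 and 57.0 in HDQ+/+. HDQ150/150 was the high library, and the log2 ratio was −1.46 with a count ratio of 0.384 (0.372 to 0.396). Tbr1, a T-box factor of deep-layer neurons, had 6.13 FPKM against 27.5 in HDQ150/150, 18.4 in HDQ200/200 and 9.97 in HDQ+/+ (log2 ratio −2.0). Tbr1 was lowest in HDQ315/+. Neurod6, a bHLH factor of cortical pyramidal neurons, was close to level: it had 18.9 and 19.5 FPKM in HDQ315/+ and HDQ150/150, 14.0 in HDQ200/200 and 6.55 in HDQ+/+ (−0.04).

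Slc30a3, the vesicular zinc transporter of cortical terminals, had 7.66 FPKM in HDQ315/+, 22.2 in HDQ150/150, 8.83 in HDQ200/200 and 4.99 in HDQ+/+ (log2 ratio −1.42). Emx1, a homeobox factor of the dorsal forebrain, had 2.39 against 9.24 FPKM, with 3.56 in HDQ200/200 and 2.63 in HDQ+/+ (−1.59). Vip, a peptide of cortical interneurons carried on the striatal interneuron list, had 2.45 FPKM against 10.03 in HDQ150/150, 4.75 in HDQ200/200 and 3.84 in HDQ+/+ (−1.68), the only lower call in that list. The key genes of that list were under the fold. Of its 16 members, 5 had a count ratio whose interval lay above 1 and 3 one under 1. Chat of cholinergic cells had 4.68 against 3.79 FPKM (0.25 on the log2 scale), Sst 423 against 419 (0.01), Npy 154 against 172 (−0.16) and Pvalb 48.2 against 50.2 (−0.06). The summed level of the 14 cortical genes was 229 FPKM in HDQ315/+, 468 in HDQ150/150, 320 in HDQ200/200 and 211 in HDQ+/+.

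Some genes of synaptic vesicle release were lower in HDQ315/+. Of 30 such genes, 0 were called higher and 5 lower, beside 2.51% and 1.91% of all genes. The median log2 ratio was −0.23. Stx1a, the syntaxin of the fusion complex, had 18.9 FPKM in HDQ315/+, 54.5 in HDQ150/150, 28.7 in HDQ200/200 and 19.3 in HDQ+/+. The heterozygote and the wild type were level, and the log2 ratio was −1.48. Snap25, its partner in the same complex, had 621, 955, 681 and 637 FPKM in that order (−0.62), again with HDQ150/150 alone above the rest. The count ratio of Snap25 was 0.728 (0.719 to 0.737), under the fold. Cplx3, a complexin, had 1.59 FPKM in HDQ315/+, 4.45 in HDQ150/150, 2.4 in HDQ200/200 and 1.77 in HDQ+/+ (−1.07). Sv2b, a vesicle glycoprotein, had 28.5, 48.6, 50.8 and 33.9 FPKM (−0.75), and Rims1, an active-zone scaffold, 18.9, 31.3, 34.1 and 23.1 FPKM (−0.70). For these last genes HDQ200/200 was the highest library, and HDQ315/+ the lowest. Another feature named Rims1 had 1.75, 5.85, 17.9 and 5.64 FPKM in the same order (−1.32), with HDQ150/150 near the wild type. Sv2c, the isoform enriched in the basal ganglia, had 12.9 and 12.04 FPKM (0.09). The summed level of cortical genes was highest in HDQ150/150, as were Stx1a, Snap25 and Cplx3 but not Sv2b and Rims1. Its part in these values was not tested.

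Ion channels and receptors were called in both directions. Of 67 potassium channel genes, 2 were higher and 8 lower, beside 2.51% and 1.91% of all genes, with a median log2 ratio of −0.15. Kcnc4, a fast delayed rectifier, had 4.60 FPKM in HDQ315/+, 10.4 in HDQ150/150, 7.46 in HDQ200/200 and 4.25 in HDQ+/+ (−1.03), and Kcnab3, a beta subunit, 10.6, 21.5, 10.6 and 7.91 FPKM (−0.95). Both were highest in HDQ150/150. Kcna5 was called higher, with 5.98 against 3.23 FPKM (0.72), and the other higher gene was Kcng2 at 2.55 against 1.08 FPKM (0.77). Of 12 GABA-A receptor subunits, 0 were higher and 2 lower, among them Gabra3 at 17.0 against 26.2 FPKM (−0.60). Pde1a, a calcium-dependent phosphodiesterase, was the only call among 16 phosphodiesterases, with 15.03 FPKM in HDQ315/+, 32.4 in HDQ150/150, 29.3 in HDQ200/200 and 15.3 in HDQ+/+ (−1.06). No call was made among 17 ionotropic glutamate receptors or 7 sodium channels, beside 4.42% of all genes in either direction.

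**Figure D3:**
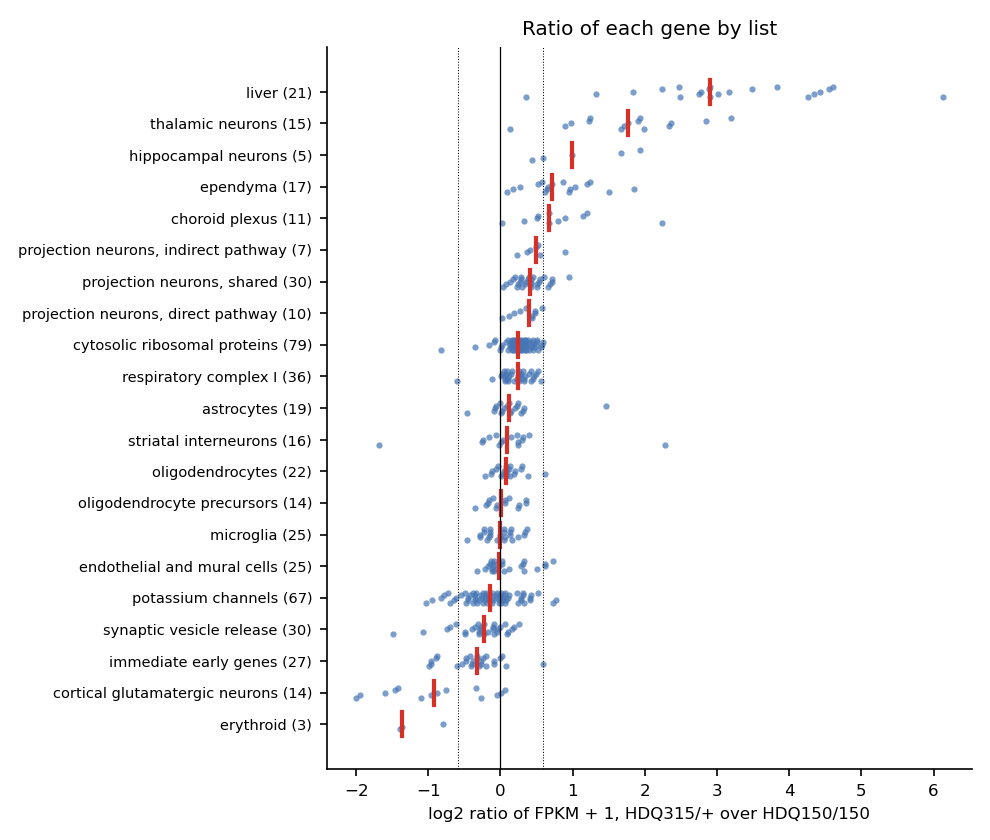
Log2 ratio of FPKM + 1, HDQ315/+ over HDQ150/150, for each gene compared in 21 lists, with the number of genes in brackets; each dot is a gene, the red bar the list's median, the solid line 0 and the dotted lines 1.5-fold. Liver, thalamic and hippocampal genes are farthest to the right, the projection neuron lists lie right of 0 within the dotted lines for the most part, and the cortical and erythroid lists lie to the left.

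Activity-induced genes were lower in HDQ315/+. Of 27 immediate early genes, 1 was called higher and 6 lower, 24 had a ratio under 0, and the median log2 ratio was −0.33, beside 1.91% of all genes lower. Over HDQ+/+ the list was as low in HDQ200/200 as in HDQ315/+, with a median of −0.52 and 13 genes lower in each, against −0.11 and 2 genes in HDQ150/150. Arc, whose transcript goes to active synapses, had 35.2 FPKM in HDQ315/+, 69.5 in HDQ150/150, 42.2 in HDQ200/200 and 67.6 in HDQ+/+. HDQ150/150 and the wild type were level, and the heterozygote was lowest (log2 ratio −0.96). Nr4a1, a nuclear receptor of the early response, had 19.7, 40.2, 32.3 and 58.4 FPKM in that order (−0.99), with a count ratio of 0.511 (0.480 to 0.543). Fos had 8.08, 16.6, 10.4 and 16.2 FPKM (−0.96), and Egr1, a zinc finger factor, 82.3, 125, 118 and 150 FPKM (−0.60). All 4 of these genes were lowest in HDQ315/+.

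The other lower calls were Fosl2, with 2.43 against 5.40 FPKM (−0.90), and Btg2, with 2.90 against 6.21 (−0.89). Gadd45g, a stress-inducible gene, was called higher at 23.9 against 15.6 FPKM (0.59), just past the fold. Junb had 44.9 FPKM in HDQ315/+, 53.3 in HDQ150/150, 29.0 in HDQ200/200 and 73.0 in HDQ+/+ (−0.24), and so was not lowest in the heterozygote. HDQ+/+ was within the fold of HDQ150/150 but not of HDQ315/+ for 6 of the 7 called genes. Immediate early transcripts respond within minutes to handling and to the time between death and dissection, which the sources used here do not give, and their part in this difference cannot be told apart from genotype.

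Cyclic AMP and calcium signals act on several of these genes through the CREB site, whose core letters are TGACG. The 250 bases before and 50 after the start of each gene were searched on both strands in RefSeq promoter sequence (GRCm38.p6). Of the 27 immediate early genes, 21 had a promoter in the table and 15 of them held the core letters, against 35.8% of the promoters of genes compared and 23.0% of all 27025 genes with a promoter. The whole palindrome TGACGTCA, which contains the core, was held by 2 of the 21, against 3.63% of the genes compared. Among the genes called lower, Fos, Nr4a1 and Btg2 held the core letters, and Arc, Egr1 and Fosl2 were not among the 15. Genes that were not called, such as Junb, also held them. The core letters were searched after the palindrome had been, and a match is a description and not a binding site. The promoters of 2 of the genes with lower levels are shown, with the core letters (TGACG, or CGTCA on the opposite strand) in capitals: Nr4a1 at chr15:101266596-101266895 and Fos at chr12:85473640-85473939, both on the plus strand.
Nr4a1: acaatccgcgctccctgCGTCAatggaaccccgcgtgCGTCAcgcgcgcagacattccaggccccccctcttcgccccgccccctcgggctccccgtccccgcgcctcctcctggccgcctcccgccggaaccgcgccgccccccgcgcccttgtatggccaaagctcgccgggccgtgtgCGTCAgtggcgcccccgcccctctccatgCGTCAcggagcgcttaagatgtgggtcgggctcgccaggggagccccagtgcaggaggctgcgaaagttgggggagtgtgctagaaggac
Fos: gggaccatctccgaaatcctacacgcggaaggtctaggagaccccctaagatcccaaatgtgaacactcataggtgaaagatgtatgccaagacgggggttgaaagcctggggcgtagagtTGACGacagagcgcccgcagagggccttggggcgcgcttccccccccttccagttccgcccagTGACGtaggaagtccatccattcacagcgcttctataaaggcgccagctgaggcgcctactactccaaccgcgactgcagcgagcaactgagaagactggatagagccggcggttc
The Nr4a1 window holds 4 matches and the Fos window 2.

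Transcripts of the choroid plexus and the ependyma also differed in level. Choroid plexus genes were higher in HDQ315/+ than in HDQ150/150 but far under the wild type in both. Of 19 members, 11 passed the filter, and 7 were called higher and 0 lower, beside 2.51% and 1.91% of all genes. The median log2 ratio was 0.67, and 15 of the 19 had a count ratio whose interval lay above 1. Ttr, the thyroxine carrier transthyretin and the most abundant choroid transcript, had 305 FPKM in HDQ315/+, 63.9 in HDQ150/150, 49.2 in HDQ200/200 and 1520 in HDQ+/+. The 2 homozygotes were lowest, HDQ315/+ stood between them and the wild type, and the log2 ratio was 2.24. Kl, the anti-ageing co-receptor klotho, had 1.93, 0.694, 1.24 and 12.1 FPKM in that order (0.79), and Folr1, a folate receptor, 1.73, 0.713, 0.668 and 8.65 (0.67). All 11 genes were lower than in HDQ+/+ by the fold in each of the 3 mutant libraries. Some of them, Kl and Folr1 included, passed the filter only through HDQ+/+, so that count was partly set by the filter. The summed level of the 11 genes was 328, 73.4, 58.7 and 1605 FPKM, most of it Ttr.

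Ependymal genes, which build motile cilia, showed a similar direction with another place for the wild type. Of 20 members, 17 passed the filter, and 12 were called higher and 0 lower, beside 2.51% and 1.91% of all genes. The median log2 ratio was 0.71. Fam183b, a cilium gene, had 6.29 FPKM in HDQ315/+, 1.03 in HDQ150/150, 1.60 in HDQ200/200 and 3.60 in HDQ+/+ (log2 ratio 1.85). Ccdc153, another, had 10.4, 3.02, 3.28 and 6.20 FPKM (1.503), so both were highest in the heterozygote. Rsph1, a radial spoke protein, had 5.92, 2.01, 2.25 and 5.46 FPKM (1.20) and was level with the wild type. Foxj1, the regulator of motile cilia, had 5.004 against 3.19 FPKM (0.52), under the fold, and 5.28 in HDQ+/+. Over HDQ+/+ the median of the 17 genes was 0.25 in HDQ315/+ and −0.46 in HDQ150/150.

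Genes made mainly by the liver were present in HDQ315/+ and, apart from Rbp4, low or at 0 in the other 3 libraries. This list was put together after some of its genes had been seen among the highest in HDQ315/+, so its direction is not independent evidence. Of 35 members, 21 passed the filter and 20 were called higher, beside 2.51% of all genes. The median log2 ratio was 2.91, but a gene seen in 1 library only passes the filter through that library. Counted without the filter, all 35 had more fragments in HDQ315/+ with an interval above 1: 11617 fragments in all, against 445 in HDQ150/150, 394 in HDQ200/200 and 905 in HDQ+/+. Rbp4, the retinol carrier that other tissues also make, held 270 of the 445 fragments of HDQ150/150, and it was the member that was not called (log2 ratio 0.36). No fragment was counted for 16 members in HDQ150/150, 14 in HDQ200/200 and 12 in HDQ+/+, against 0 in HDQ315/+.

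Alb, which encodes serum albumin (chr5:90460889-90476603), had 77.0 FPKM in HDQ315/+, 0.118 in HDQ150/150, 0.101 in HDQ200/200 and 0.132 in HDQ+/+. These values rest on 3896, 6, 7 and 10 fragments, and the log2 ratio of 6.13 was the highest of all genes compared. Apoa2 and Apoa1, apolipoproteins of high-density lipoprotein, had 39.4 against 1.10 FPKM (4.26) and 25.6 against 0.240 FPKM (4.42). Fabp1, the liver fatty acid-binding protein, had 225 fragments in HDQ315/+ and 0 in each other library. With a floor of 3 fragments for HDQ150/150 it was at least 66.7-fold higher, and Ahsg, which encodes fetuin-A, was at least 108-fold higher with 366 fragments against 0. Serpina1b, Serpina1c and Serpina1e are near-identical copies, as are Mup3 and Mup20, so the split of reads within each family is uncertain. Their levels were 6.48, 5.84 and 13.3 FPKM for the serpins and 28.9 and 23.4 for the urinary proteins in HDQ315/+, against 0.278 FPKM for Mup3 in HDQ150/150 and 0 for the others. Whether this RNA came from the animal's tissue or entered during dissection, library preparation or sequencing was not tested.

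The promoter of albumin is shown because it heads the ratio, with the core letters GTTAAT of the HNF1 site, a motif of liver promoters, in capitals (RefSeq, GRCm38.p6, chr5:90460620-90460919, plus strand).
Alb: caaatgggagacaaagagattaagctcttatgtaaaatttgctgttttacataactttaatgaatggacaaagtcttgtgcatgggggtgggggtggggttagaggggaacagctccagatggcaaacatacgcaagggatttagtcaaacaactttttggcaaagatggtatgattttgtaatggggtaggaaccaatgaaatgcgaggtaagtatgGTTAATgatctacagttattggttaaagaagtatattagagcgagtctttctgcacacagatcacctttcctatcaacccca
The core letters stood in 7 of the 15 liver genes that had a promoter in the table, against 5.23% of the genes compared and 8.24% of all genes with a promoter. The longer HNF1 consensus, which contains the core, was found in 1 of these 15, Gc, and the core was searched after it.

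Haemoglobin transcripts, which come from red blood cells, were lower in HDQ315/+. The table has 2 features named for both alpha-globin genes (Hba-a1,Hba-a2). The feature on the erythroid list had 24.2 FPKM in HDQ315/+, 63.9 in HDQ150/150, 16.8 in HDQ200/200 and 70.0 in HDQ+/+ (log2 ratio −1.36). HDQ315/+ and HDQ200/200 were low, and HDQ150/150 and the wild type high. The other alpha-globin feature had 10.98 FPKM in HDQ315/+ and 31.6 in HDQ150/150 (−1.45). The merged beta-globin feature (Hbb-b1,Hbb-b2) had 10.2, 28.4, 6.98 and 29.9 FPKM (−1.39), and Alas2, the erythroid enzyme of haem synthesis, 1.16, 2.73, 0.887 and 3.86 (−0.79). All 3 features of the erythroid list that were compared were called lower, beside 1.91% of all genes. The globin copies are near-identical, so the split of reads between them is uncertain.

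Few glial and vascular genes were called. Calls were made in 1 of 22 oligodendrocyte genes, 0 of 14 oligodendrocyte precursor genes, 1 of 19 astrocyte genes, 0 of 25 microglial genes and 3 of 25 endothelial and mural genes, all higher, beside 4.42% of all genes in either direction. The median log2 ratios were 0.08, 0.00, 0.12, −0.00 and −0.02. Mbp, the myelin basic protein, had 1967 FPKM in HDQ315/+ and 1875 in HDQ150/150 (0.07), Gfap of astrocyte filaments 36.4 and 30.5 (0.25), and C1qa, a complement gene of microglia, 43.3 and 41.7 (0.05). Cx3cr1, the fractalkine receptor of microglia, had 8.12 against 10.1 FPKM (−0.28) with a count ratio of 0.762 (0.695 to 0.837), and 9 of the 25 microglial genes had a count ratio whose interval lay under 1, against 2 above. Agt, the angiotensinogen of astrocytes and also of liver, was the called astrocyte gene with 12.7 FPKM in HDQ315/+, 3.96 in HDQ150/150, 4.09 in HDQ200/200 and 5.59 in HDQ+/+ (1.46). Klk6, a protease of myelinating cells, had 8.78 against 5.35 FPKM (0.62) and 11.02 in HDQ+/+. The 3 called vascular genes are expressed in smooth muscle and pericytes: Acta2 had 7.54 against 4.18 FPKM (0.72), Tagln 5.30 against 3.11 (0.62) and Notch3 7.77 against 4.70 (0.62). The list's other mural genes were not called. The count ratio of Notch3 was 1.26 (1.12 to 1.41), under the fold. Cldn5, the endothelial tight junction gene, had 26.4 against 33.3 FPKM (−0.32), and 13 of the 25 genes had a ratio under 0. Among 10 reactive astrocyte genes, Serpina3n was the 1 called higher, with 7.68 FPKM in HDQ315/+, 4.08 in HDQ150/150, 2.94 in HDQ200/200 and 2.59 in HDQ+/+ (0.77).

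Housekeeping groups were slightly higher as a whole, by less after correction for transcript length. The 79 cytosolic ribosomal protein genes had a median log2 ratio of 0.25, with 1 called higher (Rps26, 807 against 535 FPKM, 0.59) and 1 lower (Rpl22l1, 22.9 against 41.5 FPKM, −0.83). The 36 complex I genes also had a median of 0.25 and the 46 genes of complexes II to V one of 0.16. After correction for transcript length these medians were 0.09, 0.07 and 0.02, against 0.00 for all genes. The correction subtracts the running median of genes of similar length, which include these genes, so the part of length itself was not tested. Of 24 cholesterol synthesis genes, 2 were called lower, beside 1.91% of all genes. Sqle, squalene epoxidase, was among them, with 10.5 FPKM in HDQ315/+, 16.3 in HDQ150/150, 13.2 in HDQ200/200 and 12.4 in HDQ+/+ (−0.60). No call was made among 37 proteasome, 18 histone deacetylase or 18 repeat and mismatch repair genes, beside 4.42% of all genes in either direction.

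Genes near Htt were examined apart. Within 5 Mb of Htt, 108 genes were compared, 1 was higher and 2 were lower, or 2.78% against 4.42% of all genes. These were 1700001C02Rik with 3.89 against 0.908 FPKM (1.36), and Slc30a3 and Fosl2, described above with the cortical and early genes. The nearest of them, Fosl2, lay 2.69 Mb from Htt.

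**Figure D4:**
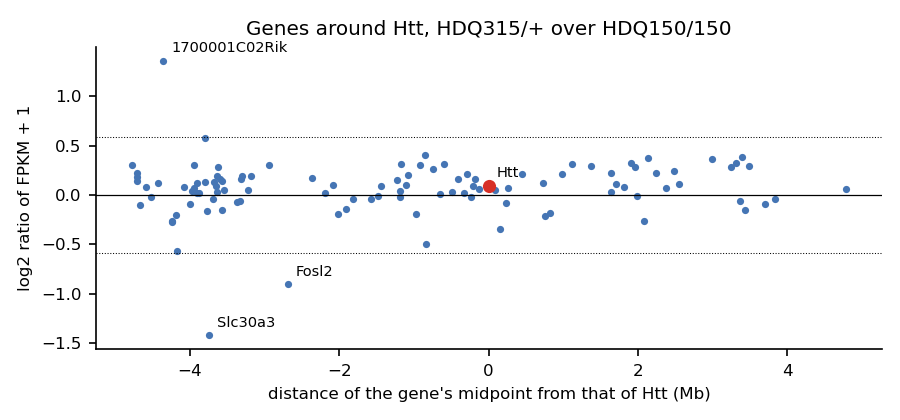
Log2 ratio of FPKM + 1, HDQ315/+ over HDQ150/150, for the 108 genes compared within 5 Mb of Htt, by distance of the gene's midpoint from that of Htt in Mb; Htt is the red point, and dotted lines mark 1.5-fold. Htt is at 0.09, and 3 genes lie outside the dotted lines.

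Setting HDQ+/+ beside the called genes showed that the 2 directions differed in which library stood apart from the wild type. Of the 246 genes lower in HDQ315/+, the wild type was within 1.5-fold of HDQ315/+ only for 137, of HDQ150/150 only for 26, of both for 71 and of neither for 12. Of the 323 higher genes the same counts were 82, 110, 109 and 22. Among the higher genes, the wild type was within the fold of HDQ150/150 only for 12 of 14 called thalamic genes and 20 of 20 called liver genes. Liver members such as Fabp1, and Shox2 and Gbx2 of the thalamic list, passed the filter only through HDQ315/+. The liver list was also put together after some of its genes had been seen high there. Its count was therefore largely set beforehand, and the thalamic count in part. For the called shared projection neuron genes the wild type was within the fold of HDQ315/+ only for 5 of 6. The 9 called cortical genes had the wild type within the fold of HDQ315/+ only for 6 and of neither for 3. HDQ200/200 was within the fold of HDQ150/150 only for 232 of the 323 higher genes and of HDQ315/+ only for 6, and for the 246 lower genes for 79 and 81. These are descriptions of levels that share libraries with the contrast itself.

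**Figure D5:**
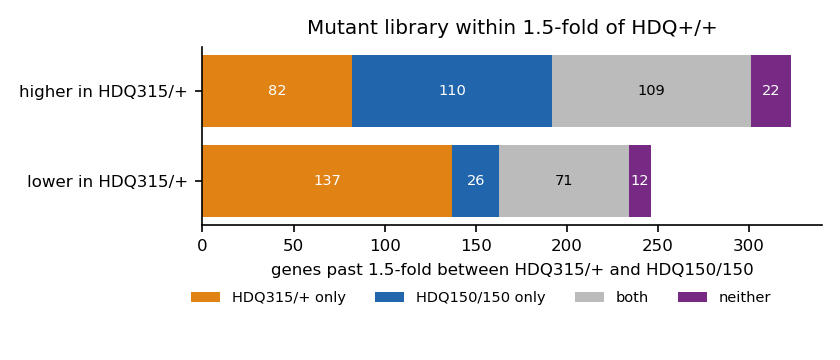
Number of genes called higher (323) or lower (246) in HDQ315/+ against HDQ150/150, split by which of the 2 libraries lay within 1.5-fold of HDQ+/+ on log2(FPKM + 1). Among lower genes the largest share, 137, had the wild type near HDQ315/+ only, and among higher genes 110 had it near HDQ150/150 only.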

How the data were processed

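Striatal poly A+ RNA of 4 genotypes, 1 library each, was analysed from 1 table of gene-level values. The FPKM values were used as deposited by the authors. The deposited count columns hold a signal scaled per library: 98.0% to 98.4% of their non-zero entries fell, within 0.05, on whole multiples of 1 step, and fragments were obtained by dividing by it and rounding. The other entries did not fall on such steps, and a check of units did not accept the values as recovered reads. Fragments, intervals and floors are therefore approximate. The submitters' processing notes name Cufflinks 2.1.1, Cuffdiff, Cuffnorm, TopHat, TopHat2 2.0.11, Bowtie2 2.1.0, bcl2fastq 1.8.4 and the build mm10, without roles. Annotation, strandedness and scaling are not stated, so overlapping and antisense genes cannot be separated.

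Ratios, a pseudocount of 1, counts past 1.5-fold and list medians were computed in Python 3.11.15 with pandas 2.3.3, NumPy 2.4.6 and SciPy 1.17.1. With 1 library per genotype no test across genes was run. Members and gene lists were chosen with earlier results of these data known. Genes named are Htt, the 12 highest and 12 lowest genes, and called genes near Htt. In each list, key members and up to 4 called members per direction are named. Actn2, Syndig1l, Itpr1, Btg2, Snap25, Rbp4, Serpina1b, Serpina1c, Lhx2, Lhx9 and Gbx2, outside this rule, were chosen after their values were seen. Some genes that the rule takes are not reported here. Merged features (329 of the genes compared) were kept whole. Alternatives were another pseudocount, filter, fold, scaling, length and GC corrections, and the deposited counts.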

Additional observations from a re-analysis of the deposited data

How the results depend on the processing

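The 323 higher and 246 lower genes became 510 and 379 with a pseudocount of 0.1, 88 and 94 when a mean of 10 FPKM was required, 83 and 68 at 2-fold, and 419 and 488 on the deposited counts. The share of called genes that were higher, 56.8%, was 48.4% when 10 FPKM was required, 62.4% with no filter on FPKM, 46.8% after median centring, 46.8% after upper-quartile scaling, 46.2% on the deposited counts, 43.3% after length correction and 48.1% after GC correction; the cause was not tested. Of 104 called genes taken by the naming rule, 0 changed sign, and 9 fell under the fold after median centring, 10 after upper-quartile scaling, 8 on the deposited counts, 10 after GC correction, 15 after length correction and 51 at 2-fold; called genes named outside that rule were not recomputed. Of the 323 and 246 genes, 259 and 246 kept their call after median centring and 224 and 237 after length correction. Lists with no gene at 10 FPKM or more, such as the hippocampal list, gave no median under that filter. Keeping the features listed at 0, an alternative chosen after seeing the data, gave 323 and 248. Length and GC corrections used the 94.1% of genes with a value. No paired analysis was possible because each genotype had 1 library, and for the same reason no replicate could be left out. Genes compared had a median of 794 fragments in HDQ315/+ and 720 in HDQ150/150, so small ratios of genes under 3 FPKM, with medians of 140 and 123 fragments, are the least precise.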

Other observations

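Genes outside every list also stood at the ends of the ranking; apart from the 12 lowest genes they were chosen after their values were seen. Rasd1, a dexamethasone-inducible Ras protein, had 13.0 FPKM in HDQ315/+, 2.00 in HDQ150/150, 1.14 in HDQ200/200 and 1.92 in HDQ+/+, a log2 ratio of 2.23. Only HDQ315/+ was high, as it was for Rab37, a secretory Rab protein, with 7.63, 1.36, 1.13 and 1.28 FPKM (1.87), and for Cpne7, a copine, with 17.8, 5.12, 3.75 and 3.94 FPKM (1.62). Zinc finger factors of the Zic family were higher beside Zic1 of the thalamic list: Zic2 had 13.6 against 5.15 FPKM (1.25) and Zic4 2.28 against 0.512 (1.12). Further genes abundant in liver followed the liver list. Hamp, the iron hormone hepcidin, had 5.38 FPKM in HDQ315/+ and 0 in each other library, Adh1, an alcohol dehydrogenase, 3.75 against 0.282 (1.89), and Gnmt, a methyltransferase, 3.49 against 0.611 (1.48). Cilium genes outside the ependymal list included Odf3b, with 4.69 against 1.27 FPKM (1.33), and Dnali1, a dynein light intermediate chain, with 2.22 against 0.542 (1.06).

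At the lower end, the genes named here had HDQ150/150 as the high library. Gm11549 had the lowest ratio of all genes compared, with 1.98 FPKM in HDQ315/+, 15.4 in HDQ150/150, 7.21 in HDQ200/200 and 4.74 in HDQ+/+ (−2.46). Dkkl1, a dickkopf-like secreted protein, had 2.61, 15.7, 4.80 and 3.96 FPKM (−2.22), and Myl4, a myosin light chain, 4.86, 19.98, 6.11 and 6.27 (−1.84). Nr4a2, a nuclear receptor related to Nr4a1, had 3.77, 14.0, 9.85 and 7.32 FPKM (−1.65) and was lowest in HDQ315/+. Sstr2, a somatostatin receptor, had 2.61 against 9.28 FPKM (−1.51), Sstr1 1.11 against 4.38 (−1.35) and Cckbr for cholecystokinin 4.45 against 13.4 (−1.40), whereas Npy2r, a neuropeptide Y receptor, was higher at 3.05 against 0.954 (1.05). The peptide gene Adcyap1, for PACAP, had 0.889 against 4.15 FPKM (−1.45).

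Some lists gave 1 or a few calls, beside 2.51% of all genes higher and 1.91% lower. Of 10 interferon response genes, Ifitm3 had 25.0 against 14.6 FPKM (0.74) and Bst2 4.41 against 2.60 (0.59), and 0 were lower. Of 16 RGS genes, 3 were higher, among them Rgs3 at 15.4 against 9.44 FPKM (0.65), and Rgs6 was lower at 1.97 against 3.58 (−0.62). Of 14 long non-coding RNAs, 2 merged features were higher, Snhg1,Snord22 (32.4 against 19.1 FPKM, 0.73) and Gas5,Mir5117 (426 against 281 FPKM, 0.60). Their count ratios were 1.23 (1.03 to 1.48) and 1.36 (1.30 to 1.42), under 1.5-fold. Miat was lower (13.6 against 21.1 FPKM, −0.60). Among 6 hypothalamic neuropeptide genes, Nts was higher (14.6 against 7.81 FPKM, 0.82), and Cartpt (1.54 against 6.59 FPKM, −1.58) and Crh (0.550 against 2.49 FPKM, −1.17) were lower.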
